A study of Mus musculus with 28 samples.

Results

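Reactive astrocyte genes are genes whose RNA is known to increase when astrocytes respond to injury, inflammation or amyloid. The 10 described here are Gfap, Vim, Nes, Serpina3n, Lcn2, Timp1, Osmr, S1pr3, Cd44 and Aspg. They were chosen by name from the 40481 mouse genes of the count table, with earlier results of these data known. All 10 were among the 20052 genes tested in sorted astrocytes, and 9 were among the 17593 genes tested in sorted microglia, where Aspg had too few counts. All 10 are protein-coding.

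Astrocytes that become reactive are known to enlarge their processes and to build more of the intermediate filament proteins Gfap, Vim and Nes, which form the part of the cytoskeleton that gives those processes their stiffness. They are also known to secrete a protease inhibitor, an iron-siderophore carrier and an inhibitor of matrix-degrading enzymes (Serpina3n, Lcn2 and Timp1), and to display receptors for an interleukin-6 family cytokine, for sphingosine-1-phosphate and for hyaluronan (Osmr, S1pr3 and Cd44). In mice that deposit amyloid, Gfap-rich astrocytes are known to gather around plaques.

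Astrocytes and microglia were sorted from the cortex, hippocampus and thalamus of the same mice, astrocytes with an antibody to ACSA-2 and microglia with an antibody to Cd11b. Of the 4 genotypes, APPPS1::APOE4fl/fl::ALDH1L1-CreERT (APPPS1 Cre-positive) had 4 mice used here, APPPS1::APOE4fl/fl (APPPS1 Cre-negative) had 5, APOE4fl/fl::ALDH1L1-CreERT (amyloid-free Cre-positive) had 2 and APOE4fl/fl (amyloid-free Cre-negative) had 2. APPPS1 is a transgene that makes mice deposit amyloid-β, APOE4fl/fl is a floxed human APOE4 allele that every mouse carried, and ALDH1L1-CreERT is a tamoxifen-activated Cre driven by the promoter of an astrocyte gene. Every mouse, with or without Cre, was given tamoxifen (2 doses of 100 mg/kg) when 3.8 months old, with sorting 10 days later, so a mouse without tamoxifen was not part of the design. The series text states 4 mice per APPPS1 group, whereas the labels give 5 in each. The 2 libraries of mouse 459, an APPPS1 Cre-positive mouse, were left out because each carried the markers of the opposite sort: the library labelled astrocyte had 7290 CPM of the microglial gene P2ry12 and 3.04 CPM of the astrocyte gene Slc1a2, and the library labelled microglia had 15.9 CPM of P2ry12 and 4537 CPM of Slc1a2.

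CPM is the count of a gene scaled to the total counts of mouse genes in the same library, and the 28 libraries held 26162612 to 63802747 counts. In the 13 astrocyte libraries used, 15 astrocyte markers summed to between 35410 and 53693 CPM and 12 microglial markers to between 61.4 and 121 CPM. The sort was less clean of oligodendrocyte RNA, since 8 oligodendrocyte markers summed to between 2743 and 15095 CPM in APPPS1 astrocytes and between 3974 and 23211 CPM in amyloid-free astrocytes, the highest in mouse 759, whose astrocyte marker sum was the lowest at 35410 CPM. In the microglia libraries 12 microglial markers summed to 20981 CPM in mouse 26 and 39400 CPM in mouse 22, the 2 amyloid-free Cre-positive mice, and to between 45950 and 50606 CPM in the other 11. Human APOE, the gene that Cre removes, averaged 620 ± 142 CPM in APPPS1 Cre-positive astrocytes (SD, n = 4) and 1521 ± 226 CPM in APPPS1 Cre-negative astrocytes (SD, n = 5), with no overlap between groups (exact permutation test, two-sided, p = 0.00794, the smallest that 126 splits can give). In amyloid-free astrocytes it was at 521 and 926 CPM with Cre, against 1052 and 1411 CPM without Cre. In sorted bulk samples, fewer cells of a type and less RNA per cell cannot be told apart. The p-values measure the spread between these mice, with 2 mice in each amyloid-free group.

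Because Gfap and Serpina3n are the members whose astrocyte levels separated every APPPS1 library from every amyloid-free library, the 250 bases before their RefSeq transcription starts are shown first. They are printed 5′ to 3′ on the gene's own strand, from the mouse assembly GRCm38.p6, at chr11:102897201-102897450 on the minus strand for Gfap and at chr12:104406458-104406707 on the plus strand for Serpina3n.

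Gfap: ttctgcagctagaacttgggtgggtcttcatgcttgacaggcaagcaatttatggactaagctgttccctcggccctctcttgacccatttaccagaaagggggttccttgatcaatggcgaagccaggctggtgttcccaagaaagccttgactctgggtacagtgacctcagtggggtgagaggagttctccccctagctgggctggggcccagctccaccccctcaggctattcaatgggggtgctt

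Serpina3n: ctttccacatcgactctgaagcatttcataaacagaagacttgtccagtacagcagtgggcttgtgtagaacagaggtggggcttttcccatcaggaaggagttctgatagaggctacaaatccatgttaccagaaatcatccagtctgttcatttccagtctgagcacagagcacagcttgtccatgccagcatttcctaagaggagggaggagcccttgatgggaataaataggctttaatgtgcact

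No letter is in capitals because neither window held any of the 4 motifs searched on both strands. These were TTCNNNGAA (a palindrome that STAT factors bind), TGANTCA (the AP-1 site), TATAAA (the TATA box) and CCAAT (the CCAAT box). Among all 32851 windows of the same length in the RefSeq table, these letters occurred in 7.02%, 6.75%, 12.4% and 33.8%, in the same order. Palindromes with another spacing, and bases farther from the start, were not searched, so sites for these factors may still be present. All 10 members matched the table. Vim was the member with TATAAA, 32 bases before its start, and it held CCAAT 196 and 94 bases before it. Timp1 held CCAAT 190 bases before its start.

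Read per kilobase of exon, so that genes of different length can be set side by side, Gfap was the most abundant member in astrocytes, at 37.0 ± 15.7 CPM per kb (SD, n = 13 libraries), followed by Vim at 19.97 ± 6.86, Serpina3n at 11.4 ± 4.65 and S1pr3 at 11.1 ± 8.76 CPM per kb. Gfap stood above Vim in 11 of 13 libraries and Vim above Serpina3n in 12. Serpina3n and S1pr3 did not differ beyond their spread, with Serpina3n the higher in 7 libraries. S1pr3 stood above Aspg in all 13 libraries. Below that step came Aspg at 1.66 ± 0.608, Cd44 at 1.41 ± 1.30, Osmr at 1.25 ± 0.696, Lcn2 at 1.14 ± 2.63, Nes at 0.643 ± 0.457 and Timp1 at 0.376 ± 0.428 CPM per kb. Among these 6, neighbours in the order overlapped in their SD, although Osmr stood above Lcn2 in 12 of 13 libraries. Lcn2 stood above Nes in only 3 of 13 libraries, and its highest library was at 9.65 CPM per kb. Exon length was that of all annotated exons of a gene merged, 3.52 kb for Aspg, 6.78 kb for Cd44 and 12.1 kb for Osmr. In CPM without this scaling Osmr averaged 15.2, Cd44 9.54 and Aspg 5.86, so their order depends on that length.

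The first question was whether amyloid raised these genes in astrocytes. Averaged over the Cre states, all 10 had a positive log2 fold change of APPPS1 over amyloid-free, with a median of 0.75 against 0.04 over all genes tested, although that of Cd44 turned negative without mouse 774. Across all the alternative fits, the sign changed in 8 of 126 estimates of members that no setting called. None of the 10 passed an adjusted p of 0.05 in edgeR's quasi-likelihood test with Benjamini-Hochberg adjustment, which called 0 of 20052 genes (0%). At an unadjusted p under 0.05, 3 members and 1409 genes were counted, and DESeq2 called the same number of members, Gfap, Vim and Serpina3n, among 254 genes. Every APPPS1 library lay above every amyloid-free library for Gfap and Serpina3n, 2 of the 15 genes (0.0748% of those tested) of which this held. Markers of vascular cells leaned the same way in this contrast, with 0 of their genes called. The 10 endothelial markers were all positive, with a median log2 fold change of 1.41, as were 8 of 9 pericyte and smooth muscle markers, with a median of 0.75. Their part in these fold changes was not tested.

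**Figure D1:**
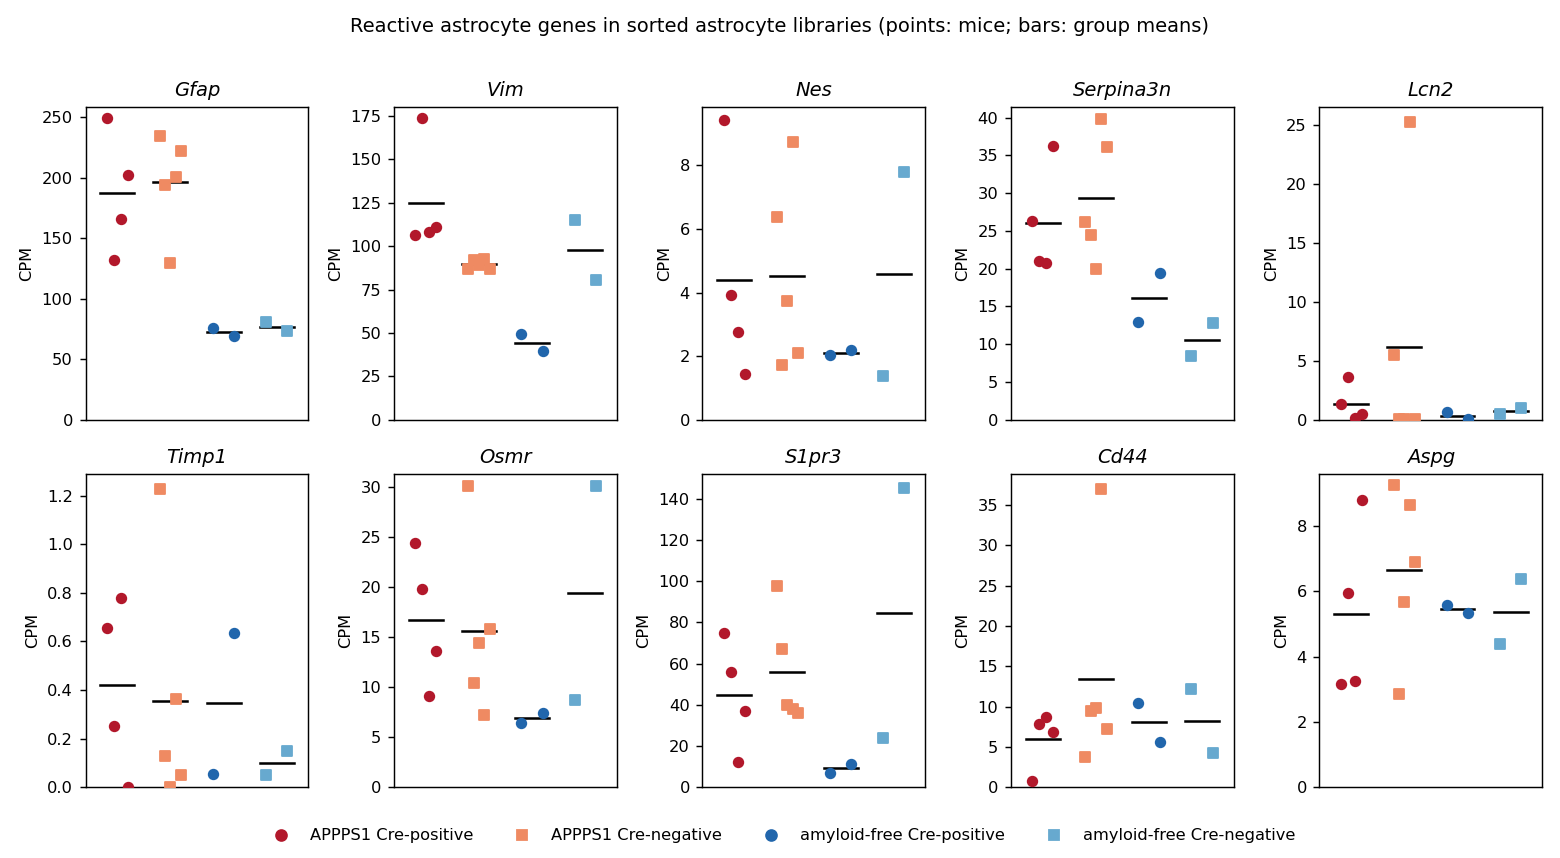
Level of each of the 10 genes in sorted astrocytes, in CPM on a linear axis from 0, with 1 point per library, a bar at the group mean and the groups in the order APPPS1 Cre-positive, APPPS1 Cre-negative, amyloid-free Cre-positive and amyloid-free Cre-negative. The 9 APPPS1 libraries lie above the 4 amyloid-free libraries for Gfap and Serpina3n, while Vim is lowest in amyloid-free Cre-positive mice.

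The filament genes come first. Gfap (ENSMUSG00000020932, chromosome 11, 102887336 to 102900912, minus strand, GRCm38), the intermediate filament protein by which astrocytes are usually recognised, was at 132, 166, 203 and 249.7 CPM in APPPS1 Cre-positive astrocytes and at 129.9, 194, 201, 222 and 235 CPM in APPPS1 Cre-negative astrocytes. It was at 69.5 and 76.2 CPM in amyloid-free Cre-positive astrocytes and at 73.4 and 80.5 CPM in amyloid-free Cre-negative astrocytes. The lowest APPPS1 library, at 129.9 CPM, was above the highest amyloid-free library, at 80.5 CPM, and the 4 amyloid-free libraries lay close together whatever their Cre state. The means were 192 ± 42.4 CPM in APPPS1 (SD, n = 9) and 74.9 ± 4.64 CPM in amyloid-free mice (SD, n = 4), a log2 fold change of 1.35 ± 0.19 (SE; edgeR quasi-likelihood, unadjusted p = 8.49e-06, Benjamini-Hochberg adjusted p = 0.168). Adjusted over the whole table of genes in each case, p was 0.0192 without a filter on low counts, 0.0401 without mouse 458 and 1.08e-08 in DESeq2.

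Split by Cre, Gfap rose with amyloid within Cre-positive mice, by a log2 fold change of 1.34 ± 0.28 (edgeR quasi-likelihood, adjusted p = 0.0482). Within Cre-negative mice the fold change was 1.36 ± 0.27 (unadjusted p = 0.000219, edgeR adjusted p = 1), and the difference of the Cre effect between APPPS1 and amyloid-free mice was −0.02 ± 0.36. The Cre-positive call lay close to the threshold. Its edgeR adjusted p was 0.363 without mouse 26 and 0.331 without mouse 22, the 2 amyloid-free Cre-positive mice, and 0.0637 without mouse 774 or mouse 779, 0.0667 without 447, 0.0876 without 475, 0.0642 without 443, 0.0558 without 465 and 0.0546 without 759. The fold change stayed between 1.14 and 1.48 when each mouse was left out.

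Vim (ENSMUSG00000026728, chromosome 2, 13573927 to 13582826, plus strand), a filament protein shared by astrocytes, endothelial cells, ependymal cells and many others, followed another pattern. It was at 107, 108, 111 and 174 CPM in APPPS1 Cre-positive astrocytes and at 87.0, 87.0, 89.2, 92.0 and 92.5 CPM in APPPS1 Cre-negative astrocytes. It was at 39.5 and 49.3 CPM in amyloid-free Cre-positive astrocytes and at 80.7 and 115 CPM in amyloid-free Cre-negative astrocytes. Every APPPS1 Cre-positive library stood above every APPPS1 Cre-negative library, whereas both amyloid-free Cre-positive libraries stood below both amyloid-free Cre-negative libraries. The share of all genes that separated in either way was not counted, and groups this small separate easily. By Cre in amyloid-free mice, Osmr and S1pr3 also separated downward and Serpina3n upward.

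Within Cre-positive mice Vim rose with amyloid, by a log2 fold change of 1.44 ± 0.20 (edgeR quasi-likelihood, adjusted p = 0.0143), and within Cre-negative mice its fold change was −0.12 ± 0.18 (adjusted p = 1). Gfap and Vim were the 2 members called of 10 within Cre-positive mice, where 0.663% of all genes were called. Within Cre-negative mice 0 of 10 members were called by edgeR, as were 0% of all genes. There, 2 members, Gfap and Serpina3n, had an unadjusted p under 0.05, and DESeq2 called both among 18 genes. Without mouse 26 the edgeR adjusted p of Vim within Cre-positive mice was 0.209, and without mouse 22 it was 0.142. Over all genes, the 133 calls within Cre-positive mice became 0 without either of these mice.

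The effect of Cre on Vim had opposite signs in the presence and absence of amyloid. The log2 fold change of Cre-positive over Cre-negative astrocytes was 0.42 ± 0.14 in APPPS1 mice (unadjusted p = 0.0108, edgeR adjusted p = 0.7) and −1.14 ± 0.22 in amyloid-free mice (unadjusted p = 0.000131, adjusted p = 0.0568). In amyloid-free mice the edgeR adjusted p was 0.041 without mouse 439, 0.0479 without mouse 460 and 0.0178 without mouse 458, whose libraries enter the fit through the shared estimate of spread. The difference between these, 1.56 ± 0.26, passed the edgeR quasi-likelihood test (adjusted p = 0.0364), and Vim was the 1 member of 10 called there, where 0.155% of all genes were called. The call ended, with an adjusted p between 0.0521 and 0.263, when any 1 of the mice 774, 469, 779, 447, 475, 443, 465, 759, 26 or 22 was left out, while the difference itself stayed between 1.30 and 1.77. Of the 6 ependymal and choroid plexus markers, 4 rose with amyloid within Cre-positive mice, among them Tmem212 by 3.16 and Rarres2 by 1.64 (named here because they were called), and Tmem212 had a difference of the Cre effect of 3.56 (edgeR quasi-likelihood, adjusted p = 0.047). The summed level of these markers was 293 to 664 CPM in APPPS1 Cre-positive and 135 to 390.5 CPM in APPPS1 Cre-negative astrocytes. It was 67.3 and 96.8 CPM in the amyloid-free mice with Cre, against 372 and 322 CPM in those without. Its part in the values of Vim was not tested.

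Nes (chromosome 3, 87971078 to 87980451, plus strand), the filament protein of neural stem cells, was at 1.43 to 9.44 CPM in APPPS1 Cre-positive and 1.74 to 8.74 CPM in APPPS1 Cre-negative astrocytes, against 2.03 and 2.18 CPM in amyloid-free Cre-positive and 1.37 and 7.80 CPM in amyloid-free Cre-negative astrocytes. The groups overlapped throughout, and its log2 fold change with amyloid was 0.51 ± 0.58 (edgeR adjusted p = 0.953).

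Among the secreted products, Serpina3n (ENSMUSG00000021091, chromosome 12, 104406729 to 104414329, plus strand), a serine protease inhibitor, was at 20.8, 21.0, 26.3 and 36.3 CPM in APPPS1 Cre-positive and at 19.98, 24.5, 26.2, 36.2 and 39.8 CPM in APPPS1 Cre-negative astrocytes. It was at 12.9 and 19.4 CPM in amyloid-free Cre-positive and at 8.43 and 12.8 CPM in amyloid-free Cre-negative astrocytes. The groups by amyloid did not overlap, but the gap was narrow, with 19.98 CPM in mouse 469 against 19.4 CPM in mouse 26. The means were 27.9 ± 7.57 CPM in APPPS1 (SD, n = 9) and 13.4 ± 4.52 CPM in amyloid-free mice (SD, n = 4), a log2 fold change of 1.06 ± 0.23 (unadjusted p = 0.000509, edgeR adjusted p = 0.204, DESeq2 adjusted p = 0.00136). Within Cre-positive mice the fold change was 0.65 ± 0.33 and within Cre-negative mice 1.47 ± 0.34 (edgeR adjusted p = 0.47 and 1), and their difference did not pass (−0.82 ± 0.45, adjusted p = 0.532). The mouse has a cluster of near-identical Serpina3 genes, so reads could be shared among them. None of 10 other Serpina3 genes looked up had enough counts to be tested.

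Lcn2 (chromosome 2, 32384633 to 32388252, minus strand), a lipocalin that binds bacterial iron carriers and is abundant in neutrophils, was widely spread among astrocyte libraries. It was at 0.135, 0.461, 1.33 and 3.596 CPM in APPPS1 Cre-positive and at 0.0464, 0.0501, 0.0651, 5.53 and 25.3 CPM in APPPS1 Cre-negative astrocytes, against 0.0682 and 0.630 CPM in amyloid-free Cre-positive and 0.480 and 1.02 CPM in amyloid-free Cre-negative astrocytes. The library at 25.3 CPM, from mouse 774, also had 369.8 CPM over the 8 monocyte and neutrophil markers, where the other 12 astrocyte libraries had 0.411 to 5.22 CPM. Lcn2 had a log2 fold change with amyloid of 2.47 ± 1.53 (edgeR adjusted p = 0.82), and of 1.404 ± 1.32 without mouse 774.

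Timp1 (chromosome X, 20870166 to 20874735, plus strand), an inhibitor of matrix metalloproteinases, was near the detection limit, at 0 to 0.777 CPM in APPPS1 Cre-positive and 0 to 1.23 CPM in APPPS1 Cre-negative astrocytes. Amyloid-free mice had 0.0548 and 0.636 CPM with Cre, against 0.0480 and 0.149 CPM without it. A difference was not detectable at this depth, with a log2 fold change of 1.03 ± 1.28 (edgeR adjusted p = 0.964).

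Of the receptors, S1pr3 (chromosome 13, 51408639 to 51422797, plus strand), which binds sphingosine-1-phosphate, was at 12.3, 37.1, 55.8 and 74.9 CPM in APPPS1 Cre-positive and at 36.2, 38.2, 39.9, 67.05 and 97.8 CPM in APPPS1 Cre-negative astrocytes. It was at 7.07 and 11.2 CPM in amyloid-free Cre-positive and at 23.8 and 145 CPM in amyloid-free Cre-negative astrocytes. The highest of all 13 libraries was thus an amyloid-free one, mouse 759, and within Cre-positive mice every APPPS1 library lay above both amyloid-free libraries. How many of all genes separated in this way within Cre-positive mice was not counted. The log2 fold change with amyloid was 2.26 ± 0.78 within Cre-positive mice (edgeR adjusted p = 0.243) and −0.59 ± 0.65 within Cre-negative mice (adjusted p = 1). The effect of Cre in amyloid-free mice, −3.21 ± 0.87 (edgeR adjusted p = 0.125), was −1.35 without mouse 759, and −4.00 with an edgeR adjusted p of 0.0486 without mouse 465. In each case 1 amyloid-free Cre-negative library remained, that of mouse 759 in the second, and its spread was taken from the other groups.

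Osmr (chromosome 15, 6813577 to 6874969, minus strand), the receptor subunit for oncostatin M, likewise was lowest on average in amyloid-free Cre-positive mice. It was at 9.09, 13.6, 19.8 and 24.3 CPM in APPPS1 Cre-positive and at 7.22, 10.4, 14.3, 15.7 and 30.0 CPM in APPPS1 Cre-negative astrocytes, against 6.44 and 7.43 CPM in amyloid-free Cre-positive and 8.67 and 30.1 CPM in amyloid-free Cre-negative astrocytes. Mouse 759 again held the highest value, and mouse 439 the next. The log2 fold change with amyloid was 1.23 ± 0.60 within Cre-positive mice (edgeR adjusted p = 0.453) and −0.31 ± 0.53 within Cre-negative mice (adjusted p = 1).

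Markers of blood vessels also varied among these libraries. Summed over 9 pericyte and smooth muscle markers, the astrocyte libraries held 335 to 1510 CPM in APPPS1 Cre-positive and 743 to 1902 CPM in APPPS1 Cre-negative mice. In amyloid-free mice they held 221 and 263 CPM with Cre, against 507 and 2847 CPM without it, the last from mouse 759. Summed over 10 endothelial markers they held 229 to 1086 CPM in APPPS1 Cre-positive and 446 to 1142 CPM in APPPS1 Cre-negative mice, and in amyloid-free mice 79.4 and 107 CPM with Cre, against 313 and 1011 CPM without it. No gene of either list was at 0 in any astrocyte library. The pericyte marker Rgs5 ranged between 26.3 and 707 CPM and the endothelial marker Cldn5 between 3.86 and 122 CPM.

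Within the 9 APPPS1 astrocyte libraries, among which amyloid status does not vary, and on the scale of log2(CPM + 0.1), S1pr3 followed the pericyte and smooth muscle sum with Pearson r = 0.952 (exact permutation p = 0.000336, Benjamini-Hochberg adjusted over 40 relations 0.0134) and Spearman rho = 0.783 (exact permutation p = 0.0172, adjusted 0.178). Without the 2 libraries farthest from the median of the marker sum, r was 0.813. Osmr and the endothelial sum had r = 0.796 (exact permutation p = 0.0102, adjusted 0.102) and rho = 0.817 (exact permutation p = 0.0108, adjusted 0.178), and r was 0.710 without the 2 farthest libraries. For Lcn2 and the monocyte and neutrophil sum r was 0.795 (exact permutation p = 0.00303, adjusted 0.0595) and rho 0.783, and r was 0.506 without the 2 farthest. For Vim and the ependymal sum r was 0.734 (exact permutation p = 0.0433, adjusted 0.288), rho 0.367, and r without the 2 farthest 0.185. For Vim both the rank relation and the relation without the farthest libraries were thus lower than r over all 9. The amyloid-free libraries, among them the Cre-positive ones lowest for Vim, were not part of these relations. The relations therefore do not cover the Vim differences that involve amyloid-free mice. The 9 libraries pool both Cre states, which the permutations ignored, and Vim did not overlap between those states. The relations shown are those of largest r for S1pr3, Osmr and Lcn2 and, for Vim, that with the markers that were called. S1pr3 also had r = 0.859 with the endothelial sum (exact permutation p = 0.00446, adjusted 0.0595, rho 0.75). Cd44 went the other way with the endothelial sum, at rho = -0.733 (exact permutation p = 0.0311, adjusted 0.178, r -0.616). Aspg had rho = 0.733 with the monocyte and neutrophil sum (exact permutation p = 0.0311, adjusted 0.178, r 0.506). Serpina3n also had r = 0.636 with the monocyte and neutrophil sum (exact permutation p = 0.016, adjusted 0.128; rho 0.733), and Gfap had rho = 0.717 with the pericyte and smooth muscle sum (exact permutation p = 0.0369, adjusted 0.184; r 0.565). Of the 40 Pearson relations, S1pr3 with pericyte and smooth muscle markers was the 1 with an adjusted p under 0.05, and of the Spearman relations 0 had one.

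**Figure D2:**
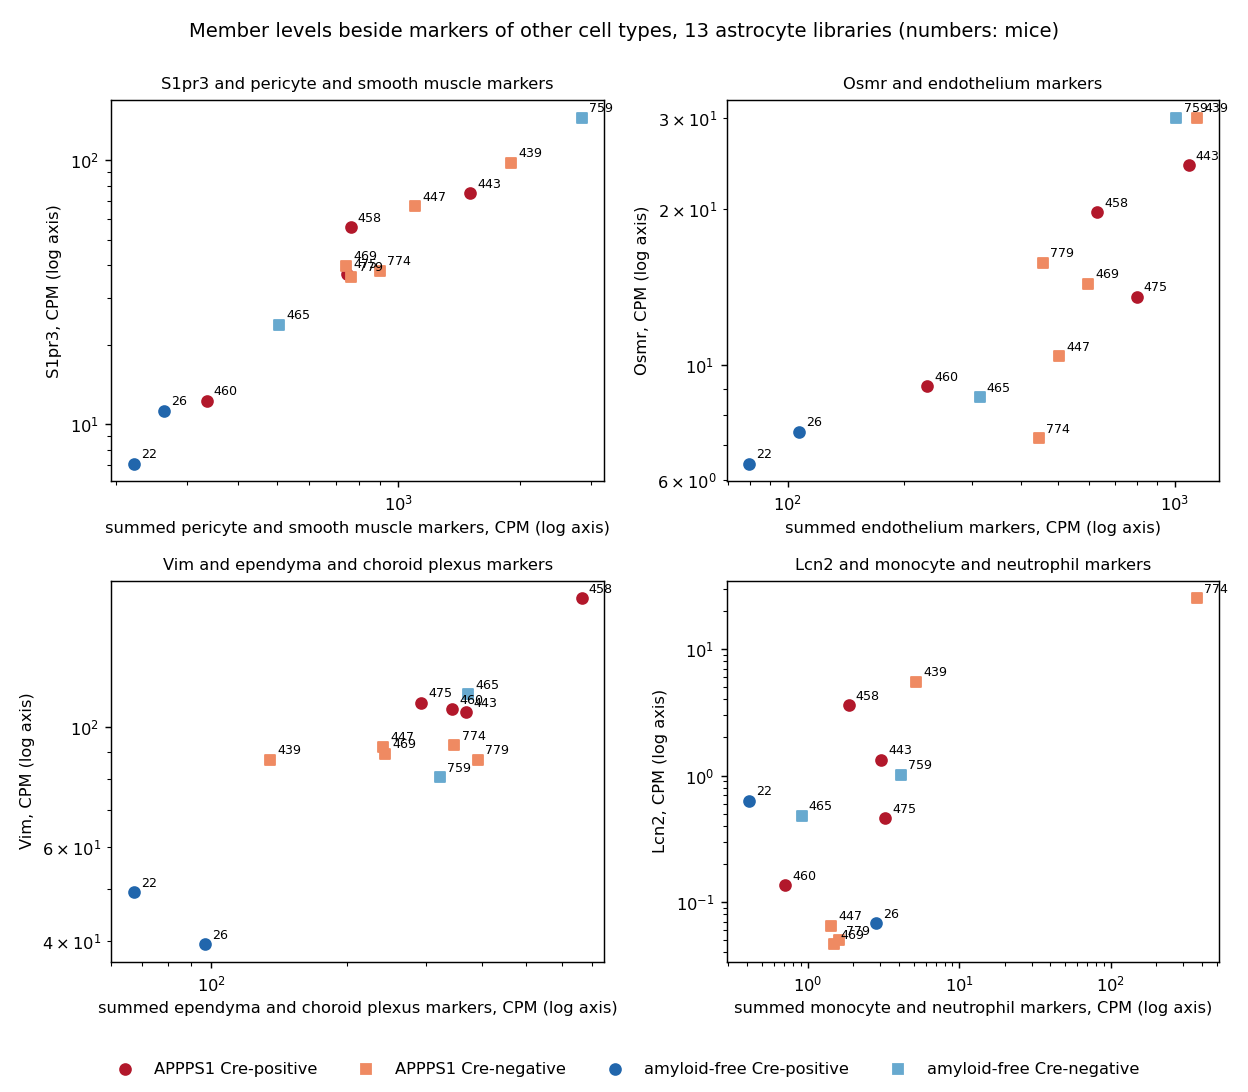
Level of 4 genes in each astrocyte library against the summed level of a marker list of another cell type, both in CPM on log axes, with 1 point per library labelled by mouse number and coloured by genotype group. S1pr3 follows the pericyte and smooth muscle sum across APPPS1 libraries (Pearson r = 0.952), and in the panel of Lcn2 the library of mouse 774 stands alone at 369.8 CPM of monocyte and neutrophil markers.

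Cd44 (chromosome 2, 102811141 to 102901665, minus strand), the hyaluronan receptor, was at 0.818, 6.78, 7.79 and 8.72 CPM in APPPS1 Cre-positive and at 3.73, 7.25, 9.46, 9.86 and 37.0 CPM in APPPS1 Cre-negative astrocytes, against 5.61 and 10.4 CPM in amyloid-free Cre-positive and 4.28 and 12.2 CPM in amyloid-free Cre-negative astrocytes. The highest value belonged to mouse 774, the library with the most monocyte and neutrophil RNA, and the other libraries of all groups overlapped. Cd44 had a log2 fold change with amyloid of 0.11 ± 0.60 (edgeR adjusted p = 0.997), which was −0.30 without mouse 774. Aspg (chromosome 12, 112106679 to 112127559, plus strand), an asparaginase, ran between 3.15 and 8.81 CPM in APPPS1 Cre-positive and between 2.86 and 9.27 CPM in APPPS1 Cre-negative astrocytes. Amyloid-free mice had 5.34 and 5.56 CPM with Cre, against 4.40 and 6.36 CPM without it. It had the smallest fold change of the 10 with amyloid, 0.11 ± 0.33 on the log2 scale (edgeR adjusted p = 0.995).

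**Figure D3:**
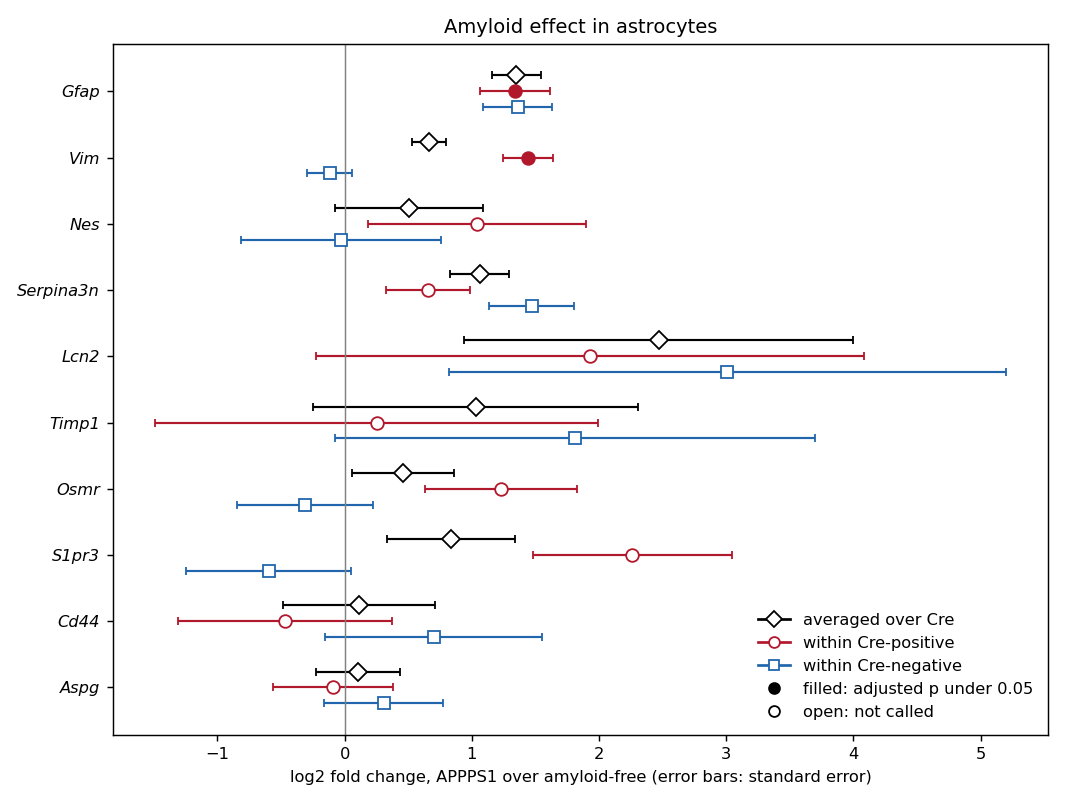
Log2 fold change of APPPS1 over amyloid-free astrocytes for each gene, with its standard error, averaged over the Cre states, within Cre-positive mice and within Cre-negative mice. Filled points passed an adjusted p of 0.05 in edgeR's quasi-likelihood test, which are Gfap and Vim within Cre-positive mice. The estimates of Gfap lie together, at 1.35, 1.34 and 1.36, while those of Vim split into 1.44 with Cre and −0.12 without it.

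The second question was whether removing astrocytic APOE4 shifted these genes. In APPPS1 astrocytes 0 of 10 members were called by edgeR's quasi-likelihood test for Cre-positive against Cre-negative mice, where 0.00997% of all genes were called (2 genes, against 36 by DESeq2). At an unadjusted p under 0.05 there was 1 member, Vim, and DESeq2 called 0. On the log2 scale the Cre effect was −0.10 ± 0.20 for Gfap and −0.21 ± 0.25 for Serpina3n. A change as large as the one with amyloid averaged over Cre, 1.35 and 1.06, lay several standard errors away for each. For Serpina3n a fall the size of its amyloid change within Cre-positive mice, 0.65 ± 0.33, lay closer. Human APOE still averaged 620 CPM with Cre against 1521 CPM without it, so these values describe a partial loss. For Cd44 (−1.21 ± 0.68) and Lcn2 (−2.20 ± 1.56) the errors were wide, and mouse 774, a Cre-negative mouse, was the highest library for both. Without it they were −0.42 for Cd44 and −0.13 for Lcn2. The median over the 10 was −0.15, against 0.00 over all genes.

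In amyloid-free astrocytes 0 of 10 members were called for Cre, where 0.204% of all genes were called (41 genes). Vim, S1pr3 and Osmr had an unadjusted p under 0.05, as did 2581 of 20052 genes, and DESeq2 called 2, Vim and S1pr3, among 898 genes. The median over the members was −0.60. Over all genes, the 41 calls became 0 without mouse 22, 26 or 759. Gfap had a log2 fold change of −0.08 ± 0.30 and Serpina3n of 0.61 ± 0.37 (edgeR adjusted p = 0.954 and 0.535). The contrasts with amyloid within Cre-positive mice and with Cre in amyloid-free mice share the same 2 amyloid-free Cre-positive libraries, which were the lowest of all for Vim, S1pr3 and for the endothelial, pericyte and ependymal marker sums.

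The same genes were then read in the microglia of the same mice. Astrocytes were compared with microglia in 1 fit over both cell types, in which 76.5% of all genes were called. Of the 10 members, 6 were called higher in astrocytes (Serpina3n, Aspg, Gfap, S1pr3, Osmr and Timp1), 3 were called lower (Lcn2, Cd44 and Vim) and Nes was not called, by edgeR's quasi-likelihood test. Serpina3n, Aspg and Timp1 had few counts in microglia. Serpina3n averaged 23.4 CPM over 13 astrocyte libraries, against 0 counts in 8 of 13 microglia libraries and 37 counts in the others together. Aspg averaged 5.86 CPM in astrocytes, and in microglia 12 of 13 libraries had 0 counts and mouse 759 had 20. Timp1 had 34 counts in all, with 0 in 8 of 13 microglia libraries. No fold is given for Serpina3n and Aspg because whole microglia groups were at 0, which allows up to 3 counts per library.

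Gfap was higher in astrocytes by 6.29 ± 0.24 on the log2 scale (edgeR adjusted p = 2.6e-16), S1pr3 by 5.88 ± 0.69 (adjusted p = 6.05e-08) and Osmr by 3.87 ± 0.47 (adjusted p = 1.13e-07). Timp1, at 2.06 ± 0.90 (adjusted p = 0.0421), lost its call without any 1 of 8 mice (774, 447, 460, 458, 465, 759, 26 or 22), with an adjusted p up to 0.152. In the other direction, Lcn2 was lower in astrocytes by a log2 fold change of −6.96 ± 1.17 (edgeR adjusted p = 1.2e-05) and Cd44 by −3.44 ± 0.45 (adjusted p = 3.18e-07). Vim, at −0.59 ± 0.25 (edgeR adjusted p = 0.0342), was −0.18 without mouse 26 (adjusted p = 0.573), and with the mouse as a block in the fit it was −0.42 (adjusted p = 0.133). Its call also ended without mouse 475, 443, 465 or 759.

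**Figure D4:**
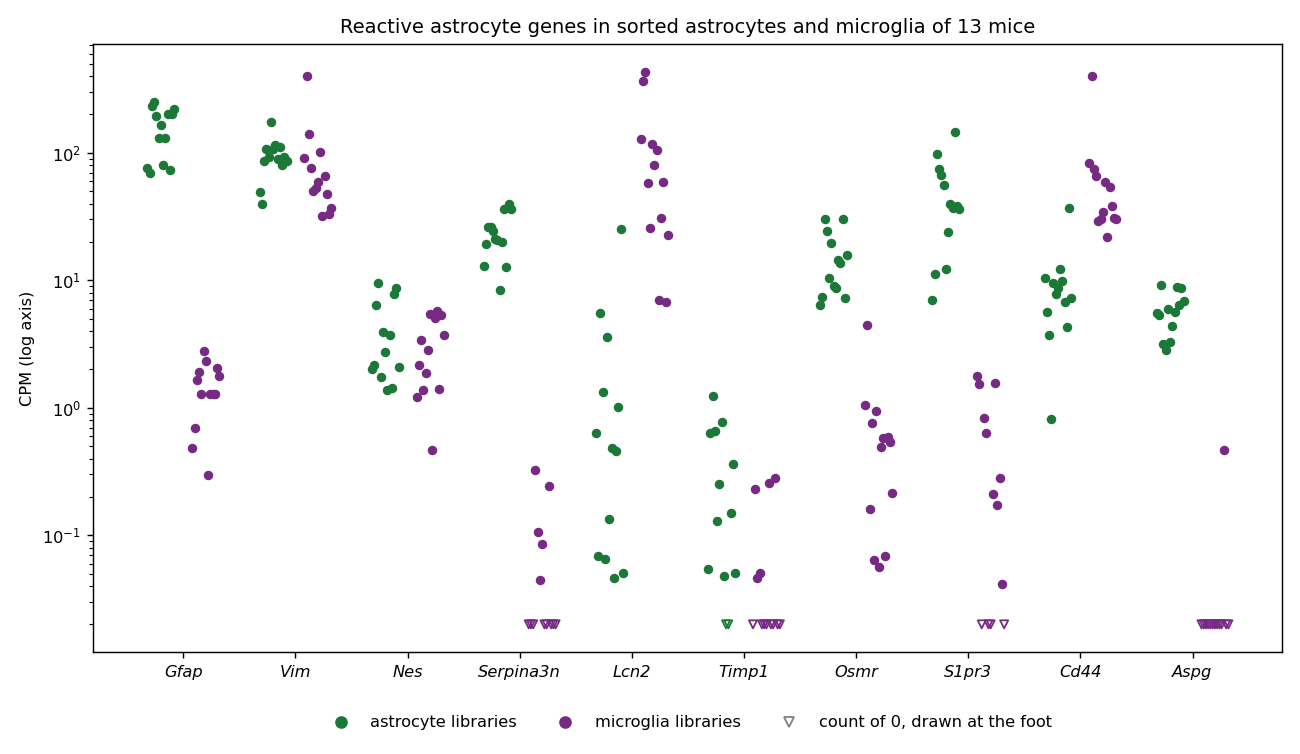
Level of each gene in sorted astrocytes and sorted microglia, in CPM on a log axis, with 1 point per library. Points are coloured by cell type, and libraries at 0 counts are drawn as open triangles at the foot. Gfap, Serpina3n, Aspg, S1pr3 and Osmr are higher in astrocytes, Lcn2 and Cd44 are mostly lower there, with the astrocyte library of mouse 774 at 25.3 and 37.0 CPM within the range of the microglia libraries, and Vim, Nes and Timp1 overlap between the cell types.

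Per kilobase of exon the order in microglia was different, with Lcn2 highest at 42.1 ± 51.4 CPM per kb, then Vim at 19.3 ± 20.6 and Cd44 at 10.8 ± 14.9 (SD, n = 13 libraries), and Nes, Gfap and the others each below 1 CPM per kb. The SDs of the first 3 exceed their means. Mouse 26 held the highest Vim and Cd44 and mouse 439 the highest Lcn2. Mouse 26 had 400.3 CPM of Vim, 402 CPM of Cd44 and 363 CPM of Lcn2, and mouse 439 had 139.5, 74.3 and 434 CPM. In the same libraries the monocyte and neutrophil markers summed to 7083 CPM in mouse 26 and 6159 CPM in mouse 439, in a range of 227 to 7083 CPM over all 13. Their part in these levels was not tested.

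In microglia, 2 of the 9 members tested were called for amyloid, Gfap and Nes, both higher, where 9.58% of all genes were called. At an unadjusted p under 0.05 in edgeR's quasi-likelihood test there were 7 members, among 4783 of 17593 genes. Of these members Cd44, Osmr, Timp1 and Vim were lower with amyloid, and Gfap, Nes and Serpina3n were higher. The amyloid-free Cre-positive libraries of mice 26 and 22 were the ones with the lowest microglial marker sums, and the part of this in the calls was not tested. Gfap was at 1.28, 1.89, 2.32 and 2.80 CPM in APPPS1 Cre-positive and at 1.28, 1.29, 1.67, 1.79 and 2.05 CPM in APPPS1 Cre-negative microglia, against 0.484 and 0.689 CPM in amyloid-free Cre-positive and 0.297 and 1.29 CPM in amyloid-free Cre-negative microglia. The log2 fold change was 1.58 ± 0.39 (edgeR quasi-likelihood, adjusted p = 0.025), and mouse 759 was the amyloid-free library that reached into the APPPS1 range. The sum of 15 astrocyte markers in the microglia libraries was 132 to 247 CPM (median 188) in APPPS1 and 281 to 413 CPM (median 367) in amyloid-free mice. The part of astrocyte RNA in the Gfap level of the microglia libraries was not tested. Nes was at 1.39, 2.82, 5.49 and 5.79 CPM in APPPS1 Cre-positive and at 1.86, 3.38, 3.70, 5.09 and 5.30 CPM in APPPS1 Cre-negative microglia, against 1.21 and 2.18 CPM in amyloid-free Cre-positive and 0.467 and 1.41 CPM in amyloid-free Cre-negative microglia. Its log2 fold change was 1.76 ± 0.43 (adjusted p = 0.0241), and the APPPS1 libraries of mice 443 and 447 lay within the amyloid-free range. Both calls ended without mouse 465, 26 or 22, with adjusted p between 0.0583 and 0.0902.

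Cd44 came next in microglia, at 30.3 to 66.1 CPM in APPPS1 Cre-positive and 21.8 to 74.3 CPM in APPPS1 Cre-negative mice, against 82.9 and 402 CPM in amyloid-free Cre-positive and 38.1 and 58.6 CPM in amyloid-free Cre-negative mice. Its log2 fold change was −1.23 ± 0.37 (edgeR adjusted p = 0.0511). It was −0.44 without mouse 26 (adjusted p = 0.532) and −1.43 without mouse 439 (adjusted p = 0.0138). Without mouse 439, 6 of the 9 members were called in microglia, Vim, Lcn2, Cd44 and Timp1 lower and Gfap and Nes higher, among 2006 genes called in that fit. Monocyte and neutrophil markers in the microglia libraries summed to 227 to 6159 CPM (median 657) in APPPS1 mice, with mouse 439 the highest. In amyloid-free mice they summed to 1442 to 7083 CPM (median 2898). The part of these markers in the amyloid fold changes was not tested. Without mouse 22, Vim, Cd44 and Timp1 were called, among 1986 genes, and Gfap and Nes were not. For Cre within APPPS1 microglia, 0 of 9 members were called, as was 0.00568% of all genes (1 gene, against 6 by DESeq2). There 1 member had an unadjusted p under 0.05, Serpina3n, whose counts were near 0, and DESeq2 called 0.

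The amyloid effect itself was compared between astrocytes and microglia, and 0 of the members were called, where 1.5% of all genes were called. At an unadjusted p under 0.05 there were 4, Osmr, Timp1, Vim and Serpina3n, among 3365 of 21612 genes, and DESeq2 called 1, Vim, among 1187 genes. For Vim the difference was 1.64 ± 0.50 (edgeR adjusted p = 0.101), or 1.57 with the mouse as a block (adjusted p = 0.2), and it was 1.96 and called without mouse 439 (adjusted p = 0.0115). For Gfap it was −0.27 ± 0.38 (adjusted p = 0.845), so its fold change with amyloid, 1.35 in astrocytes and 1.58 in microglia, was not shown to differ between the cell types. For Aspg no difference could be estimated, because microglia had almost no counts.

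Other genes of the reactive programme were read from lists chosen by their known roles, with earlier results of these data known. None of these genes passed the edgeR quasi-likelihood test for amyloid averaged over Cre in astrocytes. Of the other pan-reactive genes, 4 of 4 were positive with a median log2 fold change of 1.202, among them the chemokine Cxcl10 (1.59) and the small heat shock protein Hspb1 (1.45). Of the A1-type genes, a name for those described after systemic endotoxin, 10 of 11 were positive with a median of 0.87, among them the C1 inhibitor Serping1 (0.93) and the class I molecule H2-T23 (1.29). Of the A2-type genes, described after ischaemia, 11 of 11 were positive with a median of 1.205. The 10 members themselves had a median of 0.75, and all genes 0.04. These lists hold genes that endothelial and myeloid cells also express, and the endothelial markers had a median of 1.41 in the same contrast.

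Within Cre-positive mice the A2-type gene Tm4sf1, a tetraspanin-like membrane protein of endothelium, rose by 2.63 on the log2 scale, and Spp1, a secreted ligand of Cd44, rose by 4.04 (edgeR quasi-likelihood, adjusted p under 0.05). Both fell with Cre in amyloid-free mice, by 2.79 for Tm4sf1 and 4.82 for Spp1, and the same 2 amyloid-free Cre-positive libraries entered both contrasts. Genes described in disease-associated astrocytes were less far from all genes, with 12 of 15 positive and a median of 0.11, although the complement gene C4b was at 1.03.

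Partners of the members gave medians near that of all genes for amyloid in astrocytes. Partners of the filament proteins had 6 of 10 positive with a median of 0.15, among them synemin, Synm (0.83), and the linker plectin, Plec (0.35). For Osmr signalling 9 of 16 were positive with a median of 0.11, among them the interleukin-11 receptor Il11ra1 (0.39) and the LIF receptor Lifr (−0.34). For sphingosine-1-phosphate 6 of 10 were positive with a median of 0.15, the kinase Sphk1 at 1.77 and the receptor S1pr1 at −0.16. Metalloproteinases and their inhibitors had 7 of 11 positive and a median of 0.06, hyaluronan and Cd44 ligands 5 of 9 and 0.06, the Lcn2 receptors 0 of 2 and −0.05, and asparagine metabolism 2 of 5 and −0.09.

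Of 18 genes of Osmr signalling, 6 were higher and 10 lower in astrocytes than in microglia, and of 10 filament partners 9 were higher and 1 lower (edgeR quasi-likelihood). Over all 21612 genes 8889 were higher and 7646 lower, or 76.5% called.

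Finally, the genes whose level across the 13 astrocyte libraries was most like that of Gfap or Serpina3n were named, by Pearson correlation of log2 CPM over the 9585 genes with enough counts. The coefficients are a description over libraries that share genotype groups and depth. For Gfap they were Igtp (0.942), Ifit3 (0.895), Fam98b (0.884), Gsta4 (0.864) and Il11ra1 (0.863), and within the 9 APPPS1 libraries the same genes had 0.754, 0.740, 0.838, 0.779 and 0.887. For Serpina3n they were Ifit3 (0.903), C4b (0.849), Ifit3b (0.848), Yipf2 (0.844) and H2-K1 (0.827), and within APPPS1 libraries 0.606, 0.685, 0.596, 0.448 and 0.625. Gfap and Serpina3n had 0.824 with each other over the 13 libraries and 0.660 within the APPPS1 libraries.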

How the data were processed

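RNA from sorted astrocytes and microglia of 14 mice was sequenced after SMARTer library preparation, per the labels' protocols. The authors deposited 1 table of raw counts per gene for 28 libraries, with 95966 rows. Of these, 40481 were mouse genes, 55093 were human genes and 392 repeated an Ensembl gene identifier and were left out. Per the submitters' processing notes, bcl2fastq, STAR and Subread featureCounts were used with the builds GRCm38 and GRCh38. The strand setting of the counting is not stated. A read shared by the mouse and human copies of a gene could be lost or split, and the human copies of the members had at most 4 counts in any library.

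Mouse 459 was left out, since its libraries held the other cell type's genes. Mouse gene counts were filtered with filterByExpr, scaled by TMM and fitted in edgeR 4.0.16 (R 4.3.3, limma 3.58.1) by its quasi-likelihood test across all groups of a cell type, with Benjamini-Hochberg adjustment across every tested gene and a threshold of 0.05. The standard error is the size of the log2 fold change divided by the square root of F. CPM was taken relative to mouse gene counts. The genes named are the 10 members, up to 4 genes of lowest p for amyloid averaged over Cre in each other list, and the 5 genes most correlated with Gfap or Serpina3n; marker genes of other cell types were named after their values were seen. The members and lists were chosen with earlier results of these data known. The labels give no batch.

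Alternatives were DESeq2 1.42.0, RLE scaling, no filter, each mouse left out, compared groups only, mouse 459 kept and mouse as a block. The numbers in the titles pair the 2 libraries of 1 mouse; after removing group means, the 13 pairs had correlations between -0.038 and 0.078, and 2 libraries matched their own number best. Each test was also run on simulated counts with known changes, but the share recovered is not given here. What the tests could miss with 2 mice per amyloid-free group is therefore not stated. Promoter windows are from RefSeq (GRCm38.p6) and gene positions from the GENCODE annotation of GRCm38. Zero limits cover counting error only, whereas the SDs and standard errors include the spread between mice.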

Additional observations from a re-analysis of the deposited data

Results flagged for a closer look

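Of 40 groups of 4 or 5 libraries examined, 9 held a library far from the others of its group. Chance alone marks about 1 in 20 groups, and groups of mostly 0 counts mark easily. In astrocytes these were Vim at 174 CPM in mouse 458 among APPPS1 Cre-positive mice, and Lcn2 at 25.3 CPM and Cd44 at 37.0 CPM in mouse 774 among APPPS1 Cre-negative mice. In microglia of APPPS1 Cre-negative mice they were Vim at 139.5 CPM, Lcn2 at 434 CPM, Cd44 at 74.3 CPM and Timp1 at 0.0463 CPM, all in mouse 439, and Serpina3n at 0.106 CPM in mouse 447. In microglia of APPPS1 Cre-positive mice it was Timp1 at 0.0505 CPM in mouse 443. The ependymal marker sum in the astrocyte library of mouse 458 was 664 CPM, and the monocyte and neutrophil sums were 369.8 CPM in astrocytes of mouse 774 and 6159 CPM in microglia of mouse 439. Their part in these levels was not tested.

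The effect of Cre on Vim in astrocytes differed between APPPS1 and amyloid-free mice by 1.56 ± 0.26 on the log2 scale (edgeR quasi-likelihood, Benjamini-Hochberg adjusted p = 0.0364).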

How the results depend on the processing

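Counts of members called moved with the processing in most comparisons, and in each case the cause was not tested. For amyloid averaged over Cre in astrocytes the count of 0 became 3 with DESeq2 and 1 without a filter on low counts, and 0 to 1 when each mouse was left out. Within Cre-positive mice the count of 2 became 0 with mouse 459 kept as labelled, 1 with the compared groups only, 1 with mice 759 and 774 left out together (an alternative chosen after seeing the data), and 0 to 2 with each mouse left out. Within Cre-negative mice 0 became 2 with DESeq2. For Cre in amyloid-free mice 0 became 2 with DESeq2, 1 without a filter, and 0 to 1 with each mouse left out. For the difference of the Cre effect 1 became 0 with mouse 459 kept, 0 without mice 759 and 774 (Vim 1.76, edgeR adjusted p = 0.082), and 0 to 1 with each mouse left out. For amyloid in microglia 2 became 0 with mouse 459 kept, 4 without a filter, 0 with mice 26 and 439 left out together, also chosen after seeing the data, and 0 to 6 with each mouse left out. For astrocytes against microglia 9 became 8 with the mouse as a replicate block and 7 to 9 with each mouse left out. For the difference of the amyloid effect between cell types 0 stayed 0 with the replicate block, where 80 genes were called in place of 325, became 1 with DESeq2, and was 0 to 1 with each mouse left out.

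Over all genes, the 133 calls within Cre-positive mice were 70 with the compared groups only and 0 with mouse 459 kept. RLE scaling moved the median of all genes between astrocytes and microglia to 0.30, against 0.18 with TMM, and Vim to −0.48 (edgeR adjusted p = 0.0839). No called value changed sign under these alternatives. The amyloid-free groups have 2 mice each, which limits every comparison with them; with 1 of them left out, the lone library is assumed to vary like the other groups, and genes under 1 CPM (Lcn2 and Timp1 in most astrocyte libraries) rest on few counts.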

Other observations

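In the 9 APPPS1 astrocyte libraries, with both Cre states pooled, the 10 genes gave 45 pairs. They were correlated on the scale of log2(CPM + 0.1), which is not the smoothed log2 CPM used to find the genes most like Gfap. The strongest relation was negative, between Cd44 and Osmr (Pearson r = -0.784, exact permutation p = 0.00869, Benjamini-Hochberg adjusted 0.391), and Gfap and Serpina3n had r = 0.627 (exact permutation p = 0.0706, adjusted 0.636) and Spearman rho = 0.667 (exact permutation p = 0.0589). None passed the adjustment over the pairs.

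In microglia, genes described in disease-associated astrocytes included 6 that rose and 3 that fell with amyloid of 15 in the list (edgeR quasi-likelihood, adjusted p under 0.05), where 1066 of 17593 genes were higher and 619 lower (9.58% called).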
